A study of Mus musculus with 12 samples.

Results

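MLO-Y4 cells kept at μ-g were compared with MLO-Y4 cells kept at 2-g in the bore of a superconducting magnet whose field has a steep gradient (LG-HMF), a comparison called set 4. Both groups stood in the same field of 12 T for 48 h, where magnetic forces of equal size pointed against gravity (μ-g) or along it (2-g), so the strength of the field did not differ between them. The comparison used 6 of the 12 arrays of the series, 3 of μ-g and 3 of 2-g, and all 19938 genes that were named by 1 symbol. The other arrays, used below for reference, were 3 of the 1-g group (16 T, no net magnetic force, 48 h) and 3 of the control group, incubated outside the magnet in the geomagnetic field. All groups shared the same line, medium and temperature, and no gene was altered by design. MLO-Y4 is a line of osteocyte-like cells that was made from the long bones of a mouse of 14 days which carried the SV40 large T antigen under the osteocalcin promoter, so all samples come from 1 immortalised line. The μ-g and 2-g cells also stood at different places of the bore, and place and force cannot be told apart. Replicates are called biological in the labels, which do not say that they were separate cultures, so p-values may measure only technical spread.

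Osteocytes lie inside mineralised bone, far from vessels, and live at low oxygen tension. Cells read oxygen mainly through prolyl hydroxylases of the EGLN family, which use oxygen to mark the alpha subunits of hypoxia-inducible factors (HIF) for destruction through the VHL ubiquitin ligase. When oxygen is short the alpha subunits (encoded by Hif1a and Epas1) pair with ARNT and switch on genes for glucose uptake, glycolysis, mitophagy, acid export, collagen hydroxylation and blood vessel growth, together with Egln1 and Egln3 themselves. Oxygen itself was not among the deposited measurements.

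Levels are deposited log2 values of gene expression arrays, so a difference of 1 between groups is a factor of 2, and levels of different genes cannot be compared because each gene has its own probes. A gene is called lower or higher only at an adjusted p under 0.05 of limma (Benjamini and Hochberg, over all genes, 1 fit over the 12 arrays). In μ-g, 298 genes were lower than in 2-g (1.49% of the genes tested) and 276 were higher (1.38%), together 574 (2.88%). The 3 μ-g arrays lay wholly on one side of the 3 2-g arrays in all 574, as they did in 21.1% of all genes at any p. The difference in the 574 therefore had the same sign in all 3 replicate numbers. The lower genes changed more: 106 of them passed FC > 1.5 and 8 passed FC > 4, while 12 and 0 of the higher genes did. At the limits of FC > 1.5 and unadjusted P under 0.05, 119 DEGs were down-regulated and 22 were up-regulated, and at unadjusted P alone 5.75% of genes were lower and 11.4% higher. Over all genes the median difference was 0.029 and 37.2% of genes had a negative sign.

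The replicate numbers were taken to pair the arrays of both groups, from correlations in these same values and not from the labels. Adding that number to the fit as a block gave 778 genes lower (3.9%) and 1053 higher (5.28%), among them all 574. A fit of the 6 arrays alone called 206 lower and 95 higher, of which 193 and 88 were among the 574. Both counts fell by over 1.5 times when 1 of 4 arrays was left out: omitting μ-g replicate 1 gave 168 lower and 51 higher genes, omitting μ-g replicate 3 gave 178 and 83, omitting 2-g replicate 2 gave 187 and 73, and omitting 2-g replicate 3 gave 167 and 72. Of the 298 lower genes 139 passed without any single array, and of the 276 higher genes 40 did.

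**Figure D1:**
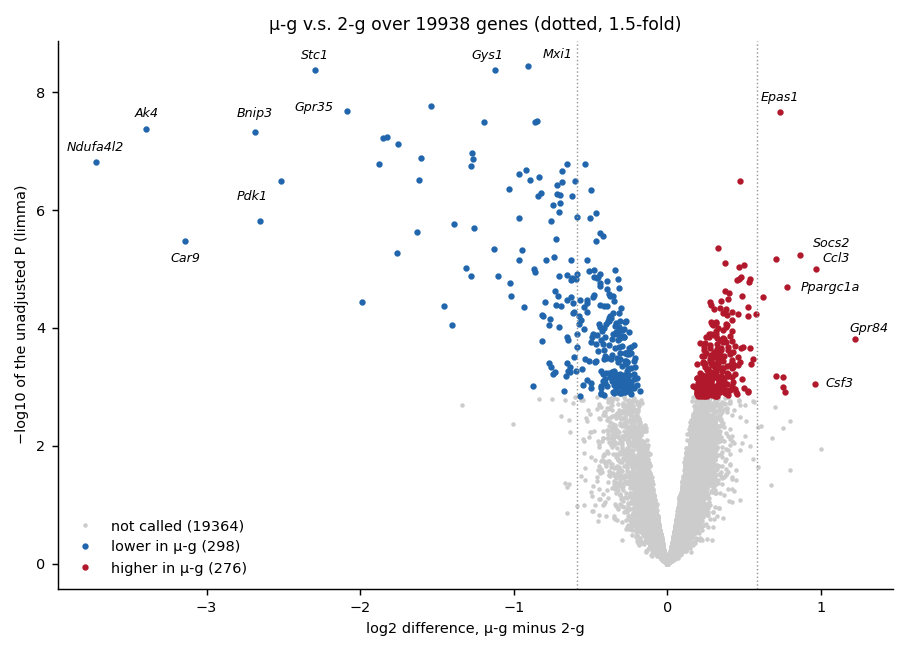
Each point is 1 of 19938 genes, with the log2 difference of μ-g minus 2-g on the x axis and −log10 of the unadjusted P of limma on the y axis. Blue points (298) were lower and red points (276) higher in μ-g at adjusted p under 0.05, and the blue arm reaches −3.72 (Ndufa4l2) while the red arm ends at 1.22 (Gpr84).

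The 4 largest differences were those of Ndufa4l2, Ak4, Car9 and Bnip3, and all 4 genes were lower in μ-g. Ndufa4l2, a mitochondrial protein of low oxygen that resembles a subunit of the respiratory chain, gave 6.79, 7.07 and 6.94 in μ-g and 10.51, 11.02 and 10.44 in 2-g. Its level was 13.2 times lower in μ-g, a log2 difference of −3.72 (SE 0.34, adjusted p = 0.000159). The arrays of 1-g gave 7.12, 7.14 and 6.78 and those of control 8.94, 10.04 and 8.18, so 1-g overlapped with μ-g, and control lay between the 12 T groups with a wide spread. Ak4, an adenylate kinase of the mitochondrial matrix, read 7.96, 8.39 and 7.55 in μ-g against 11.42, 11.40 and 11.25 in 2-g, a difference of −3.39 (SE 0.28, adjusted p = 8.4e-05) or 10.5-fold. Bnip3, a mitophagy receptor of the outer mitochondrial membrane, read 9.70, 10.22 and 9.75 against 12.57, 12.66 and 12.50 and differed by −2.69 (SE 0.22, adjusted p = 8.4e-05). Ndufa4l2, Ak4 and Bnip3 had 2-g arrays above every array of the other groups. Car9, a membrane carbonic anhydrase that handles the acid of glycolytic cells, read 6.38, 6.48 and 6.14 in μ-g and 9.21, 10.13 and 9.08 in 2-g, a difference of −3.14 (SE 0.39, adjusted p = 0.00116). Its 2-g arrays were uneven, with replicate 2 the highest.

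**Figure D2:**
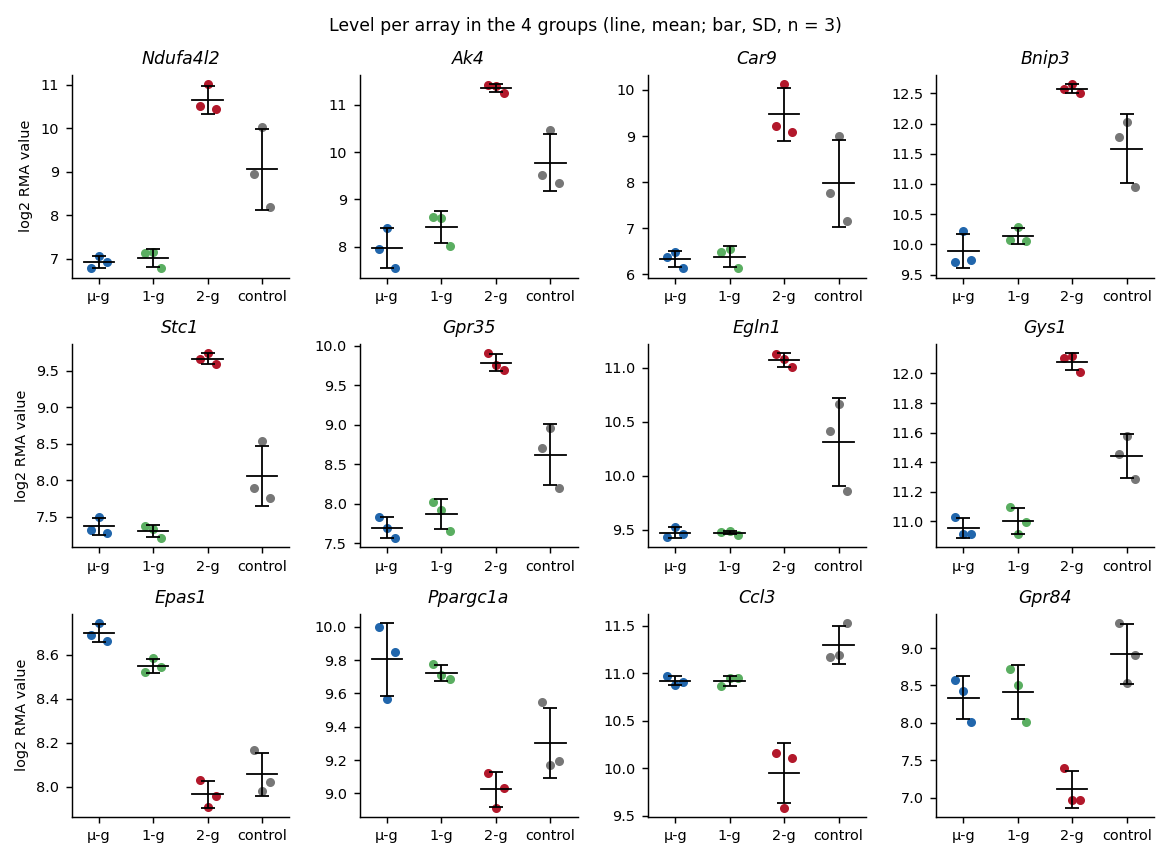
Log2 level of 12 genes on each array (points), with the mean (line) and SD (bar, n = 3) of μ-g, 1-g, 2-g and control. In the 8 genes from Ndufa4l2 to Gys1 the 3 arrays of 2-g are the highest of the 12 and those of 1-g sit beside those of μ-g, and in Epas1, Ppargc1a, Ccl3 and Gpr84 the arrays of 2-g lie below all those of μ-g and 1-g.

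Tmem45a, a transmembrane protein, differed by −2.65 (SE 0.30, adjusted p = 0.000633). Pdk1, the kinase that shuts pyruvate out of the citrate cycle, read 7.51, 7.73 and 7.44 in μ-g and 9.97, 10.19 and 10.07 in 2-g, a difference of −2.51 (SE 0.25, adjusted p = 0.000207). Stc1, a secreted glycoprotein named for calcium control in fish, read 7.32, 7.50 and 7.29 against 9.66, 9.74 and 9.59 and had the smallest adjusted p together with Gys1 and Mxi1 (2.76e-05), with a difference of −2.30 (SE 0.15). Gpr35, a G-protein coupled receptor, differed by −2.09 (SE 0.16, adjusted p = 7.04e-05), and Arrb1, which encodes beta-arrestin, by −1.85 (SE 0.16, adjusted p = 9e-05). Ndrg2, a growth-restraining stress gene, differed by −1.99 (SE 0.31, adjusted p = 0.00579), and Cox7a1, a cytochrome c oxidase subunit, by −1.88 (SE 0.17, adjusted p = 0.000159). Apln, the peptide ligand apelin, differed by −1.82 (SE 0.15, adjusted p = 9e-05). The list of the 15 largest falls is completed by Fam162a (−1.76), Higd1a (−1.75) and Selenbp1 (−1.63), the last of which may share signal with its near copy Selenbp2. None of these 15 calls was lost when any single array was left out.

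**Figure D3:**
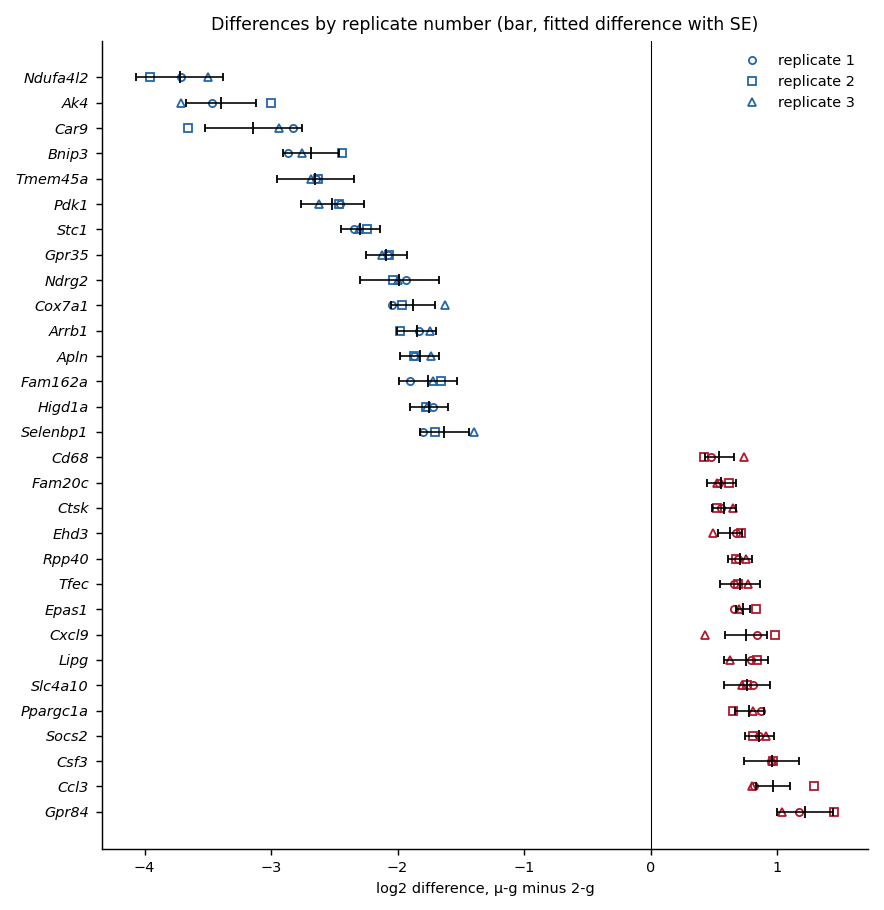
Log2 difference of μ-g minus 2-g for the 15 genes with the largest fall (blue) and the 15 with the largest rise (red), with 1 symbol per replicate number and the fitted difference with its SE in black. Only genes whose groups did not overlap were picked, so every point must lie on the same side of 0 as its gene's fitted difference. The falls reach below −3 while no rise passes 1.5.

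The DNA before the start of 4 of these genes is shown because the short core of the site that HIF binds can be searched in it. That core was taken as ACGTG, with the variant whose first letter is instead a G, GCGTG, counted as well. The 250 bases before the annotated start are given 5′ to 3′ on the strand of the gene (RefSeq, GRCm38.p6). Each match is in capitals, also where it lies on the other strand and so is read as its reverse complement. The first form of the core is also a part of the palindromic E-box, so a match does not tell these motifs apart.
Ak4 (chr4:101419039-101419288, plus strand): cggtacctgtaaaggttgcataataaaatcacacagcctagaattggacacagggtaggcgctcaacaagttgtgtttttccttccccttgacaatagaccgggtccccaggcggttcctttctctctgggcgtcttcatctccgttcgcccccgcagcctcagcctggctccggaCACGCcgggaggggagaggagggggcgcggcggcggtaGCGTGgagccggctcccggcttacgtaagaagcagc
Car9 (chr4:43506776-43507025, plus strand): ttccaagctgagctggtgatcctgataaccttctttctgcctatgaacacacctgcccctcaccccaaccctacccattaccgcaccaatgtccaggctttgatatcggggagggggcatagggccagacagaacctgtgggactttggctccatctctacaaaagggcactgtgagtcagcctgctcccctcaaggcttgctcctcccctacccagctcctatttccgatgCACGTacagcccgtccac
Bnip3 (chr7:138909507-138909756, minus strand): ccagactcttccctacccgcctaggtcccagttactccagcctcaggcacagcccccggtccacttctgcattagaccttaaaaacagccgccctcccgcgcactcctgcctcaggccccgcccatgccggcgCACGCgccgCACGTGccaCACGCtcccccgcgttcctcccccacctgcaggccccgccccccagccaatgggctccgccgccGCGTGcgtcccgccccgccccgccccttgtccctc
Tmem45a (chr16:56886164-56886413, minus strand): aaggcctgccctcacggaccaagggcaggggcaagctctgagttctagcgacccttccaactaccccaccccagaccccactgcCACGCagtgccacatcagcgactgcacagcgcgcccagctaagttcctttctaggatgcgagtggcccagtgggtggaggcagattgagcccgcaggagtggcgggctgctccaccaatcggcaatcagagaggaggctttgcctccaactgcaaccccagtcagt
The windows hold 2 matches for Ak4, 1 for Car9, 5 for Bnip3 and 1 for Tmem45a. In Bnip3 the palindrome CACGTG counts as 2 of the 5, 1 on each strand. Ak4 has 4 listed starts, of which the one with the lowest coordinate is printed. Promoters were matched by symbol for 222 of the 298 lower genes, 230 of the 276 higher genes and 15614 of all genes tested. A match was held by 65.9% of the 305 promoters of lower genes, 63.0% of the 289 of higher genes, 46.2% of the 19177 of genes tested and 38.6% of all 32851 promoters of the table. For the genes that were lower more than 2-fold it was 83.8% of 37 promoters. Their mean GC content was 60.8% in lower, 58.5% in higher and 56.4% in all tested genes, and the motif is rich in G and C. These shares are descriptions and no binding was measured.

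Most genes of the hypoxia response were lower in μ-g. Of 37 measured members 29 were lower, 0 were higher and 8 did not pass, against 1.49% of all genes lower, and the median difference was −0.86 beside 0.029 over all genes. This list and those below were chosen with earlier results of these data known. Their shares and medians are therefore descriptions and not tests. When single arrays were left out, between 25 and 29 members were lower. By adjusted p the leading members were Mxi1, a repressor in the MYC network (−0.91), Ak4, Bnip3, P4ha2, P4ha1 and Egln1. The list shares 9 members with that of mitochondrial proteins of low oxygen. The members that did not pass were Vegfa, the main growth factor of vessels (−0.035 (SE 0.049), adjusted p = 0.789), Rora (−0.22), Hilpda (−0.27), Wsb1 (−0.26), Pfkfb3 (−0.51), Pfkfb4 (0.064), Tet1 (−0.10) and Rbpj (−0.085). With the block Pfkfb3 (adjusted p = 0.00139) and Hilpda (adjusted p = 0.0233) passed as well.

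Mitochondrial genes known from low oxygen were lower in μ-g, and most other mitochondrial genes did not pass. Of 12 mitochondrial proteins of low oxygen 10 were lower, with a median of −1.76. Among all genes 1.49% were lower and 1.38% higher. Lonp1, the matrix protease (−0.23), and Fundc1, a mitophagy receptor (−0.086), did not pass. Of 83 respiratory chain genes 4 were lower, 1 was higher and 78 did not pass, with a median of 0.015. The lower genes were Ndufa4l2, Cox7a1, Cox4i2 (−0.82 (SE 0.14, adjusted p = 0.00786)), the low-oxygen form of a cytochrome c oxidase subunit, and Ndufv3 (−0.61 (SE 0.12, adjusted p = 0.0213)), a subunit of complex I whose call was lost at adjusted p = 0.0983 without μ-g replicate 1. Ndufa4, the paralog of Ndufa4l2 and a subunit of cytochrome c oxidase, moved the other way: it read 11.72, 11.75 and 11.68 in μ-g and 11.45, 11.33 and 11.41 in 2-g, a difference of 0.32 (SE 0.057, adjusted p = 0.0124) that was lost at adjusted p = 0.0582 without 2-g replicate 2. Cox7a2, the widely expressed paralog of Cox7a1, differed by −0.027 (SE 0.061) with adjusted p = 0.88. Bnip3l, the paralog of Bnip3, differed by −0.23 (SE 0.056, adjusted p = 0.0472), less than Bnip3, and its call was lost without several single arrays (adjusted p = 0.187 without μ-g replicate 1). None of 77 mitochondrial ribosome genes passed with limma (median 0.062, 14 higher and 2 lower at unadjusted P, where 11.4% and 5.75% of all genes were), and 5 were higher and 1 lower with the block, where 5.28% and 3.9% of all genes were.

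Of 17 measured genes of oxygen sensing 4 were lower, 1 was higher and 12 did not pass, with a median of 0.025. Over all genes 1.49% were lower and 1.38% higher. Egln1, the main HIF prolyl hydroxylase, read 9.43, 9.52 and 9.46 in μ-g and 11.13, 11.08 and 11.01 in 2-g, a difference of −1.60 (SE 0.15, adjusted p = 0.000159), and 1-g (9.47, 9.49 and 9.45) matched μ-g to within 0.1. Egln3, its paralog, differed by −1.26 (SE 0.15, adjusted p = 0.00078), while Egln2, the remaining paralog, differed by 0.0047 (SE 0.064) with adjusted p = 0.984. Epas1, which encodes HIF-2α, went in the opposite direction, with 8.69, 8.75 and 8.66 in μ-g and 8.03, 7.91 and 7.96 in 2-g, a difference of 0.73 (SE 0.056, adjusted p = 7.04e-05). Its groups did not overlap, and the 1-g arrays (8.52, 8.59 and 8.54) lay between them. Hif1a, which encodes HIF-1α, differed by 0.19 (SE 0.051) and missed the threshold (adjusted p = 0.067), but passed with the block (adjusted p = 0.0218). Vhl (−0.32), the adaptor of the ligase that destroys HIF, and Cited2 (−0.30), a competitor of HIF for its coactivator, were also lower. The call of Vhl was lost without several single arrays (adjusted p = 0.139 without μ-g replicate 1).

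Of 18 measured genes of glycolysis 10 were lower in μ-g, 0 higher and 8 did not pass, against 1.49% of all genes lower. The list's median was −0.51 beside 0.029 over all genes. Eno2, an enolase, read 9.14, 9.08 and 9.02 in μ-g and 10.71, 10.67 and 10.48 in 2-g and differed by −1.54 (SE 0.12, adjusted p = 7.04e-05). Pfkl, the liver-type phosphofructokinase that commits sugar to glycolysis, differed by −1.61 (SE 0.16, adjusted p = 0.000207), its paralog Pfkp by −1.03 (SE 0.15, adjusted p = 0.00341), and its paralog Pfkm by −0.11 (SE 0.11) with adjusted p = 0.694. Pgk1 (−0.92) and Pkm (−0.53), the enzymes that make ATP in the pathway, Pgam1 (−0.68), Ldha (−0.63), which turns pyruvate to lactate, and Tpi1 (−0.48) were lower as well. The aldolases Aldoc (−1.40) and Aldoa (−0.60) were both lower, with the larger difference in Aldoc, whose call was lost at adjusted p = 0.0523 without μ-g replicate 1. Aldoa may share signal with a retrogene. Hexokinases did not pass (Hk1 −0.096, Hk2 −0.26, Hk3 0.10), and neither did Ldhb (0.12).

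Of 16 genes of glucose transport and of the PFKFB family only Slc2a1, the basal glucose transporter GLUT1, passed (−0.82 (SE 0.085, adjusted p = 0.000287)), and Slc2a3 differed by 0.17 (SE 0.08) with adjusted p = 0.294. Of 19 genes of pyruvate fate, Pdk1 and Slc16a3, the lactate exporter MCT4 (−0.97 (SE 0.093, adjusted p = 0.000196)), were lower. The other pyruvate dehydrogenase kinases gave 0.003 (Pdk2), −0.28 (Pdk3) and −0.14 (Pdk4) and did not pass, though Pdk3 passed with the block (adjusted p = 0.017). In the TCA cycle, all 19 genes had positive differences (median 0.13), but only Ogdh, a subunit of 2-oxoglutarate dehydrogenase, was called (0.25 (SE 0.056, adjusted p = 0.0401)), and its call was lost at adjusted p = 0.152 without μ-g replicate 1. With the block 4 of them were higher, beside 5.28% of all genes. Without the block 1.49% of all genes were lower and 1.38% higher.

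Genes that build and mobilise glycogen were among the lower ones. Gys1, the glycogen synthase outside the liver, read 11.03, 10.91 and 10.92 in μ-g and 12.11, 12.12 and 12.01 in 2-g, a difference of −1.12 (SE 0.075, adjusted p = 2.76e-05), and no array of 1 group came near the other. Pgm1, which interconverts glucose phosphates, differed by −1.28 (SE 0.12, adjusted p = 0.000161) and Pygl, a glycogen phosphorylase, by −0.84 (SE 0.087, adjusted p = 0.000292). Ppp1r3c (−0.61) and Ppp1r3b (−0.40), which target a phosphatase to glycogen, and Epm2a (−0.81), the glycogen phosphatase laforin, were lower too, and the call of Ppp1r3b was lost at adjusted p = 0.136 without μ-g replicate 1. The lower genes were 6 of 23, beside 1.49% of all genes. The other 17 did not pass, and the median was −0.015. Gbe1, the branching enzyme, differed by −0.52 (SE 0.15) and passed only with the block (adjusted p = 0.00494).

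Of 20 genes of collagen modification 7 were lower in μ-g, 0 were higher and 13 did not pass, against 1.49% of all genes lower, with a median of −0.20. Several of these enzymes are 2-oxoglutarate dioxygenases, which use oxygen as a substrate. P4ha1, a catalytic subunit of collagen prolyl hydroxylase, differed by −1.27 (SE 0.11, adjusted p = 0.000145). Its paralog P4ha2 differed by −1.19 (SE 0.095, adjusted p = 7.15e-05), and P4ha3 by −0.33 (SE 0.14) (adjusted p = 0.234, with the block 0.00946). The lysyl hydroxylases Plod1 (−0.69) and Plod2 (−0.76), P3h3 (−0.42), P4hb (−0.26), the beta subunit, and the crosslinking enzyme Lox (−0.36) were the other lower members. The call of P4hb was lost without several single arrays (adjusted p = 0.164 without μ-g replicate 1). Of 44 collagen chains only Col3a1 was called (−0.67 (SE 0.16, adjusted p = 0.0447)), which was lost at adjusted p = 0.186 without μ-g replicate 1. With the block 2 chains were higher and 6 lower, beside 5.28% and 3.9% of all genes. Among 30 histone and DNA dioxygenases 7 were lower. By adjusted p they were led by Kdm4b (−0.89 (SE 0.087, adjusted p = 0.000207)), a histone lysine demethylase, Alkbh5 (−0.46 (SE 0.051, adjusted p = 0.000508)), which removes methyl marks from RNA, Jmjd6 (−0.74), Kdm3a (−0.87), Kdm5b (−0.66) and Tet2 (−0.62), which oxidises methylcytosine. Kdm8 was higher (0.32 (SE 0.062, adjusted p = 0.0197)), a call lost at adjusted p = 0.0751 without 2-g replicate 3. The other 22 did not pass.

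**Figure D4:**
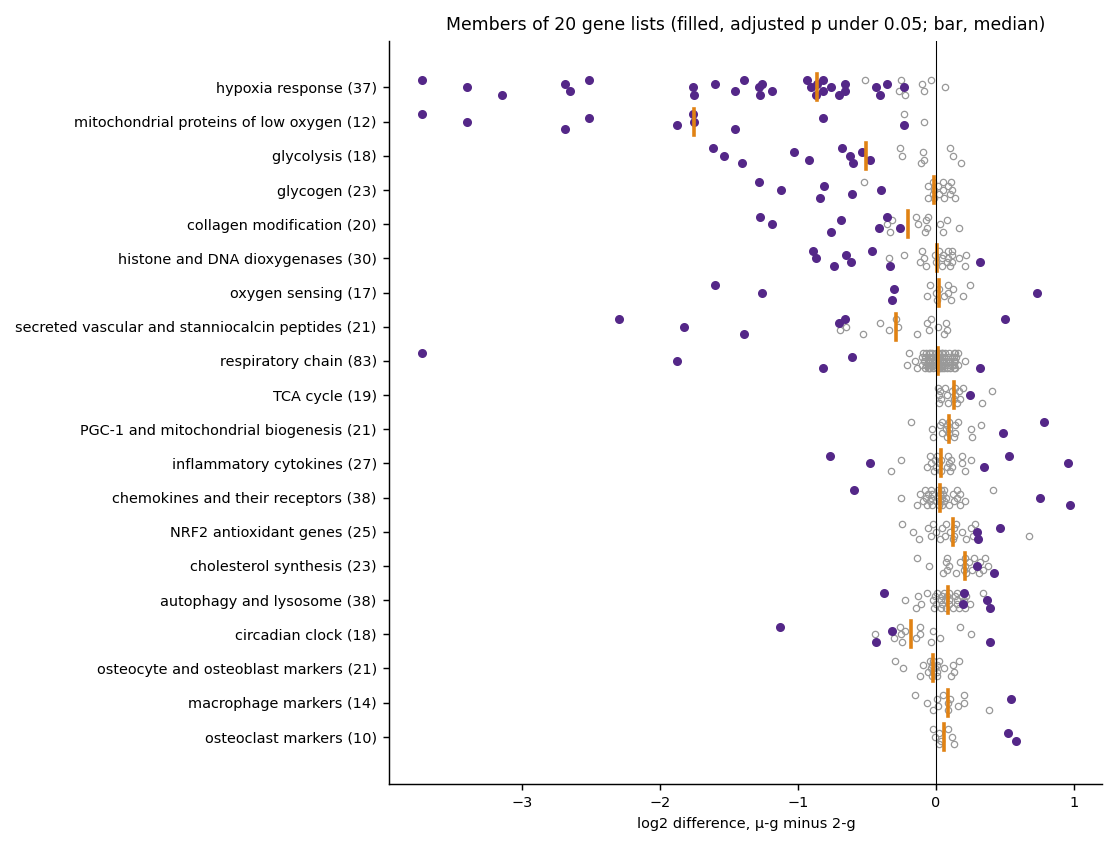
Each circle is a member of 1 of 20 gene lists at its log2 difference of μ-g minus 2-g, filled where adjusted p was under 0.05, and the orange bar is the list's median (number of measured genes in brackets). The lists of hypoxia response, mitochondrial proteins of low oxygen and glycolysis have medians of −0.86, −1.76 and −0.51, and the osteocyte, macrophage and osteoclast markers have medians of −0.018, 0.089 and 0.061. The lists were chosen with earlier results of these data known.

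Some secreted peptides and G-protein coupled receptors were called, in both directions, and over all genes 1.49% were lower and 1.38% higher. Of 21 secreted vascular and stanniocalcin peptides 5 were lower: Stc1, Apln, Adm, which encodes the vessel-widening peptide adrenomedullin (−1.39 (SE 0.16, adjusted p = 0.000676)), Stc2 (−0.70) and Ang2 (−0.66), whose call was lost at adjusted p = 0.144 without μ-g replicate 1. Fgf2, a growth factor, was higher (0.50 (SE 0.12, adjusted p = 0.0417)) and was lost at adjusted p = 0.165 without μ-g replicate 1. With the block 12 were lower, beside 3.9% of all genes. Among 31 G-protein coupled receptors and arrestins, Gpr35, Arrb1, the sphingosine phosphate receptor S1pr3 (−0.74) and the receptor kinase Grk5 (−0.31) were lower and Gpr84 was higher. The calls of S1pr3 and Grk5 were lost at adjusted p = 0.138 without μ-g replicate 1 and 0.152 without 2-g replicate 3. Of 16 carbonic anhydrases Car9 was lower and Car13 higher (0.30 (SE 0.055, adjusted p = 0.0124), lost at adjusted p = 0.0633 without 2-g replicate 3). Car12 read 7.02, 6.92 and 7.41 in μ-g and 8.09, 8.13 and 7.63 in 2-g, a difference of −0.84 (SE 0.21) that missed the threshold (adjusted p = 0.0536) and passed with the block (adjusted p = 0.0266). In the NDRG family Ndrg2 and Ndrg1 (−0.66 (SE 0.061, adjusted p = 0.000159)) were lower, and Ndrg3 (−0.045) and Ndrg4 (−0.079) did not pass.

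The 4 largest rises were those of Gpr84, Ccl3, Csf3 and Socs2. Gpr84, a receptor for medium-chain fatty acids on activated myeloid cells, read 8.57, 8.42 and 8.01 in μ-g and 7.40, 6.97 and 6.97 in 2-g, with 9.34, 8.53 and 8.91 in control, a difference of 1.22 (SE 0.22, adjusted p = 0.0136) or 2.33-fold. Its call was lost without 3 single arrays (highest adjusted p = 0.0744 without μ-g replicate 1). Ccl3, a chemokine for monocytes, read 10.97, 10.88 and 10.91 in μ-g and 10.16, 9.59 and 10.11 in 2-g, a difference of 0.97 (SE 0.13, adjusted p = 0.00272), and its control arrays (11.17, 11.19 and 11.53) were above all others. Csf3, the growth factor G-CSF, read 8.13, 8.02 and 8.64 against 7.18, 7.05 and 7.68, a difference of 0.96 (SE 0.22, adjusted p = 0.0386), in which replicate 3 was high in both groups. Socs2, a brake on cytokine signals, differed by 0.86 (SE 0.11, adjusted p = 0.00183). Smaller rises were called in other members of the cytokine and chemokine lists. Tnf, the inflammatory cytokine, differed by 0.53 (SE 0.077, adjusted p = 0.00341), Cxcl9, a chemokine for T cells, by 0.75 (SE 0.17, adjusted p = 0.034) and Il1rn, the antagonist of the interleukin-1 receptor, by 0.35 (SE 0.078, adjusted p = 0.0371). Without single arrays the calls of Csf3 (adjusted p = 0.136 without 2-g replicate 2), Cxcl9 (0.0998 without 2-g replicate 2) and Il1rn (0.119 without 2-g replicate 2) were lost.

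Most genes of the inflammatory lists did not pass. Over all genes 1.38% were higher and 1.49% lower at adjusted p, 5.28% and 3.9% with the block, and 11.4% and 5.75% at unadjusted P. Of 27 inflammatory cytokines 3 were higher and 2 lower (Mif −0.48 and Il10 −0.77), and of 38 chemokines and receptors 2 were higher and Ackr3, a scavenging receptor, was lower (−0.59). Tlr2, a receptor for bacterial lipoproteins, was the only call among 24 innate pattern receptors (0.42), and with the block 5 were higher and 2 lower. Ikbkb (0.20) and Socs2, given above, were higher and Nfkbiz (−0.22) lower among 24 genes of NF-kB and SOCS feedback. S100a3 (−0.63) was the only call among 17 S100 proteins, and Odc1, the first enzyme of polyamine synthesis (0.53 (SE 0.087, adjusted p = 0.00791)), among 15 genes of nitric oxide and arginine. With the block 0 S100 proteins were higher and 6 lower. Leaving out single arrays ended the calls of Il10 (adjusted p = 0.0975 without μ-g replicate 1), Ackr3 (0.133 without μ-g replicate 1), Tlr2 (0.0665 without μ-g replicate 3), Ikbkb (0.178 without μ-g replicate 1), Nfkbiz (0.128 without μ-g replicate 3) and S100a3 (0.0994 without μ-g replicate 3). None of 27 interferon response genes passed with limma (6 higher and 0 lower at unadjusted P), and none of 13 genes of prostaglandin synthesis (1 higher and 1 lower).

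Ppargc1a, the coactivator PGC-1α that drives mitochondrial biogenesis, was higher in μ-g. It read 10.00, 9.57 and 9.85 in μ-g and 9.12, 8.92 and 9.03 in 2-g, a difference of 0.78 (SE 0.11, adjusted p = 0.00393). Its paralog Ppargc1b differed by 0.079 (SE 0.057) with adjusted p = 0.527. Pparg, the nuclear receptor of adipogenesis, differed by 0.48 (SE 0.074, adjusted p = 0.00508), and the other 19 of 21 genes of mitochondrial biogenesis did not pass. Over all genes 1.38% were higher.

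The remaining large rises had varied roles. Slc4a10, a bicarbonate transporter, differed by 0.77, Lipg, the endothelial lipase, by 0.75, Tfec, a relative of the lysosomal regulator TFEB, by 0.71, Rpp40, a subunit of ribonuclease P, by 0.71 (SE 0.093, adjusted p = 0.00209), Ehd3, an endosomal ATPase, by 0.63 (SE 0.096, adjusted p = 0.00517), Ctsk, the collagen-cutting protease cathepsin K, by 0.58 (SE 0.095, adjusted p = 0.0077), Fam20c, a kinase of secreted matrix proteins, by 0.56 and Cd68, a lysosomal glycoprotein, by 0.55. The calls of Slc4a10 (adjusted p = 0.187 without μ-g replicate 1), Lipg (0.141 without μ-g replicate 3), Tfec (0.143 without μ-g replicate 1), Fam20c (0.0895 without μ-g replicate 3) and Cd68 (0.115 without μ-g replicate 1) were lost without single arrays.

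In autophagy and lysosome, the alpha-galactosidase Gla (0.39), Atg7 (0.37), cathepsin D (Ctsd, 0.20) and Map1lc3b (0.19) were higher and the kinase Ulk1 (−0.37) lower of 38 genes, with 11 higher with the block. NRF2 antioxidant genes gave 3 higher of 25: Txnrd1 (0.47 (SE 0.067, adjusted p = 0.00317)), Gclm (0.29) and Srxn1 (0.30), and 8 with the block. In cholesterol synthesis Hsd17b7 (0.42) and Insig1 (0.30) were higher of 23, and 9 with the block. The iron transporter Slc11a2 (0.28) was the only call of 18 iron genes (5 higher with the block), and the amino acid transporter subunit Slc3a2 (0.24) of 41 genes of ER stress (12 higher and 2 lower with the block). Of 18 heat shock genes Hspa4 (0.23) was higher and Cryab (−0.76) lower, with 7 and 2 called with the block. The counts with the block stand beside 5.28% of all genes higher and 3.9% lower with it. Those without it stand beside 1.38% higher and 1.49% lower. Ulk1, Txnrd1, Slc11a2 and Cryab passed without any single array, and the other calls of these lists were lost, at adjusted p = 0.142 without μ-g replicate 3 for Map1lc3b, 0.187 without μ-g replicate 1 for Slc3a2, 0.167 without μ-g replicate 1 for Hspa4, 0.161 without μ-g replicate 1 for Ctsd, 0.156 without μ-g replicate 1 for Insig1, 0.106 without μ-g replicate 1 for Hsd17b7, 0.0937 without μ-g replicate 1 for Atg7, 0.0913 without μ-g replicate 1 for Srxn1, 0.0535 without μ-g replicate 1 for Gla and 0.0522 without 2-g replicate 3 for Gclm.

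Bone matrix and mechanical genes gave few calls at adjusted p without the block, where 1.38% of all genes were higher and 1.49% lower. Of 33 matrix proteases and inhibitors Ctsk, Mmp9 (0.52) and Mmp2 (0.20) were higher, and Timp3, an inhibitor of such proteases (−0.55), and Adamts5 (−0.52) were lower. In 30 YAP and mechanosensitive genes Ccn2, the matricellular protein CTGF (−0.63 (SE 0.097, adjusted p = 0.00517)), and Tgfb2 (−0.27) were lower and Tead4, a partner of YAP, was higher (0.36). Nr4a1 (0.54) was higher and Fosl1 (−0.27) lower of 28 immediate early genes, Tpm2, a tropomyosin (−0.48 (SE 0.074, adjusted p = 0.00517)), was the only call of 41 actin and focal adhesion genes, and Id2 (−0.79 (SE 0.10, adjusted p = 0.00209)) and Tgfb2 were those of 59 Wnt, BMP and TGF-beta genes. Casp6 (−0.53) was the only call of 28 BCL2 family and caspase genes, and limma called none of 21 connexins, pannexins and ATP receptors (2 higher and 4 lower at unadjusted P), of 22 p53 targets (4 higher and 0 lower), of 39 proliferation genes (3 higher and 1 lower) or of 53 cytosolic ribosome genes (0 higher and 7 lower), beside 11.4% higher and 5.75% lower over all genes at unadjusted P. With the block 5 p53 targets were higher, beside 5.28% of all genes higher and 3.9% lower with it. Of the matrix proteases and inhibitors 4 were higher and 10 lower with the block (3 and 11 at unadjusted P). Among actin and focal adhesion genes it called 2 higher and 7 lower, and among immediate early genes 1 and 5. For YAP and mechanosensitive genes these counts were 2 and 4, and for Wnt, BMP and TGF-beta genes 4 and 4. Of 18 clock genes Ciart (−1.13 (SE 0.14, adjusted p = 0.00153)), Per1 (−0.32) and Bhlhe40 (−0.43), which is also a hypoxia response gene, were lower and Nr1d2 was higher (0.39), and 7 were lower with the block. Single arrays ended the calls of Mmp9 (adjusted p = 0.139 without 2-g replicate 2), Mmp2 (0.165 without μ-g replicate 1), Timp3 (0.117 without 2-g replicate 3), Adamts5 (0.151 without μ-g replicate 1), Tgfb2 (0.167 without μ-g replicate 1), Tead4 (0.166 without μ-g replicate 1), Nr4a1 (0.075 without 2-g replicate 2), Casp6 (0.106 without μ-g replicate 1), Per1 (0.0522 without 2-g replicate 3), Bhlhe40 (0.127 without μ-g replicate 1) and Nr1d2 (0.165 without μ-g replicate 1).

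Of the 574 called genes 122 were in at least 1 of the 50 lists. The 8 others with the smallest adjusted p were F730043M19Rik (−0.85), Eid1, an inhibitor of a histone acetyltransferase (−0.86 (SE 0.069, adjusted p = 7.15e-05)), Rcor2, a corepressor subunit (−1.26 (SE 0.11, adjusted p = 0.000159)), Sik1, a salt-inducible kinase (−0.83), Zhx2, a zinc-finger homeobox repressor that was higher (0.47 (SE 0.047, adjusted p = 0.000207)), Cdh13, a cadherin without a cytoplasmic tail (−0.72), Nxph4, a neurexophilin (−1.03), and Adgrg1, an adhesion receptor (−0.50). Rcor2 read 8.21, 8.38 and 8.17 in μ-g and 9.39, 9.71 and 9.44 in 2-g, and Zhx2 9.06, 8.97 and 9.04 and 8.50, 8.54 and 8.61. All 8 passed without any single array.

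Markers of osteocytes and of other cells gave few calls. The shares over all genes were 1.38% higher and 1.49% lower at adjusted p. They were 5.28% and 3.9% with the block, and 11.4% and 5.75% at unadjusted P. Because a level cannot be set against that of another gene, and no detection calls were used here, the arrays do not show which markers were absent and the osteocyte label was not checked by level. None of 21 osteocyte and osteoblast markers was called by limma (0 higher and 2 lower in μ-g at unadjusted P), with a median of −0.018, and with the block 2 were lower. Among them Pdpn, a marker of young osteocytes, differed by 0.16, Gja1, the connexin of osteocyte contacts, by −0.24, Dmp1, a matrix protein of mature osteocytes, by 0.056 and Sost, the Wnt antagonist sclerostin, by 0.0086, none of which passed. Of 14 macrophage markers Cd68 was called, while Adgre1 (0.099), Ptprc (0.016), Itgam (0.049) and Csf1r (−0.15) did not pass. Of 10 osteoclast markers Ctsk and Mmp9 were called, while Calcr (0.13), Dcstamp (0.023) and Acp5 (0.036) did not pass. Pparg was the only call of 10 adipocyte markers, where Adipoq differed by 0.044 and Fabp4 by −0.36 without passing, and limma called none of 10 endothelial markers (1 higher and 0 lower at unadjusted P) and none of 16 mast cell genes (2 higher and 0 lower). In RNA of whole cultures a change in the number of cells of a type cannot be told from a change in RNA per cell. The 6 arrays correlated at 0.996 to 0.998 within groups and 0.995 to 0.997 between them across clusters.

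The cells at 1-g, which met a field of 16 T without net force, stood near μ-g in the genes that differed between the 12 T groups. The place of 1-g was measured as its difference from the midpoint of μ-g and 2-g, which shares arrays with set 4 but is orthogonal to it in the fit. The SE is shared with set 4, so the 2 tests are not independent. Genes called in set 4 tend to have a small SE here too, which raises their share at unadjusted P above that of all genes. Of the 298 lower genes, 1-g lay nearer to μ-g than to 2-g in 294, with a median of −0.19 below the midpoint beside 0.0084 over all genes. At unadjusted P under 0.05, 210 of them were below the midpoint and 0 above, where 2.53% of all genes were below and 3.72% above. Of the 276 higher genes 262 had 1-g on the side of μ-g, with a median of 0.13 above the midpoint, and 152 were above and 3 below at unadjusted P. At adjusted p, 4 genes were below the midpoint (0.0201% of genes tested): Stc1 by −1.21 (SE 0.13, adjusted p = 0.0194), Gys1 by −0.51 (SE 0.065, adjusted p = 0.0429), Mxi1 by −0.39 (SE 0.051, adjusted p = 0.0432) and Slc16a3 by −0.59 (SE 0.08, adjusted p = 0.0455). With the block the midpoint test passed in 70 of the 298 and 9 of the 276 genes. Without single arrays of μ-g, 1-g or 2-g at most 2 of the 574 called genes passed with 1-g on the side of μ-g. μ-g v.s. 1-g called 0 genes with limma and 460 at unadjusted P, which does not show that the groups were equal.

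**Figure D5:**
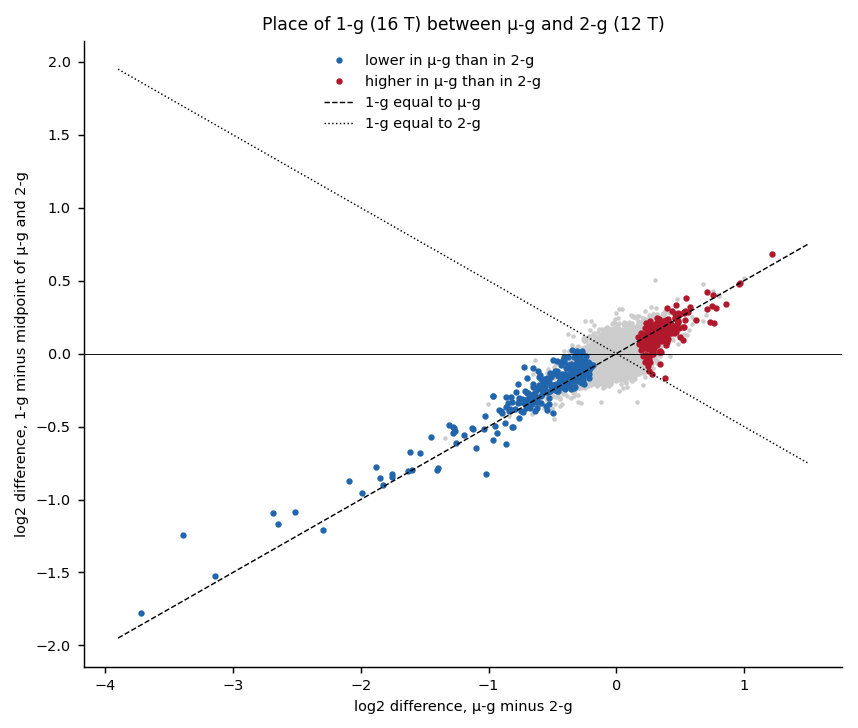
Each point is a gene, with the log2 difference of μ-g minus 2-g on the x axis and of 1-g minus the midpoint of μ-g and 2-g on the y axis. Genes on the dashed line have 1-g equal to μ-g and genes on the dotted line 1-g equal to 2-g, and the blue (298) and red (276) genes lie along the dashed line.

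The difference between 1-g and control is taken from arrays outside set 4, but its SE comes from the same fit over all 12 arrays and is shared with set 4. Of the 298 lower genes 113 were lower in 1-g than in control at unadjusted P and 9 were higher, where 3.03% of all genes were lower and 7.79% higher. Of the 276 higher genes 77 were higher and 5 lower at unadjusted P. At adjusted p, 22 of the 298 were lower, where 0.145% of all genes were, and 7 of the 276 were higher, where 0.176% were. The lower genes included Ndufa4l2 (−2.04 (SE 0.34, adjusted p = 0.0391)), Bnip3 (−1.45 (SE 0.22, adjusted p = 0.0293)), Cox7a1 (−1.24 (SE 0.17, adjusted p = 0.0272)), Egln1 (−0.84 (SE 0.15, adjusted p = 0.0396)) and Gys1 (−0.44 (SE 0.075, adjusted p = 0.0396)), and the higher ones Epas1 (0.49 (SE 0.056, adjusted p = 0.0105)). These 29 calls were sensitive to single arrays: 0 were left when any 1 of the 3 arrays of 1-g was left out, 4 without control replicate 1 or 2, and 3 to 15 when 2-g replicate 3 (3), μ-g replicate 3 (6), 2-g replicate 1 (12) or μ-g replicate 1 (15) was omitted. With the block 70 of the 298 were lower and 22 of the 276 higher.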

How the data were processed

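Each of 4 groups of MLO-Y4 cells had 3 Affymetrix Mouse Gene 1.0 ST arrays of total RNA. The deposited values are log2 intensities of 28856 transcript clusters, which the authors normalized by RMA; the raw intensities were not used here, so background correction and summarisation are theirs. Clusters with 1 gene symbol in the platform annotation (21789) gave 19938 genes, and of a gene's several clusters (999 genes) the one with the highest mean over 12 arrays was taken. Genes without such a cluster were not analysed here. Group means were fitted to every cluster with limma 3.58.1 in R 4.3.3 (lmFit, eBayes; 8 residual and 3.90 prior degrees of freedom), with Benjamini-Hochberg adjustment over the 19938 genes and a threshold of 0.05. The number of arrays limits the precision. No array was left out and no 2 arrays held identical values. The script was tested on simulated data.

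Deviations from the group means correlated at 0.349, 0.483 and 0.230 between μ-g and 2-g arrays of the same replicate number and at −0.368 to 0.0951 between other numbers. By the limit of 0.1 the numbers pair the arrays, as seen in the values, since no source used here says what the numbers stand for. The methods of the study name LIMMA with FC 1.5 and P under 0.05, and P is read here as unadjusted.

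The comparison, the gene lists and the rule for naming genes were chosen with earlier results of these data known. Named are the 15 largest rises and falls, up to 6 called members per list and those against the list's direction, the 12 genes of the study's PCR, close paralogs, the 8 genes in no list with the smallest adjusted p, cell type markers, and others where stated. The list members that did not pass and the miRNAs were picked after their values were seen. Promoters were matched by symbol and searched for ACGTG and GCGTG on both strands. The alternatives were fits of 6 arrays, with the replicate number as a block, of genes above the median level, of centred or quantile-normalized arrays, with an intensity trend and robust prior, of the mean of a gene's clusters, without each array, and a plain 2-sample test on each gene's own variance, which the study's array methods do not name.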

Additional observations from a re-analysis of the deposited data

How the results depend on the processing

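With the replicate number as a block 778 genes were lower and 1053 higher, and with the block in the 6 arrays alone 555 and 572. The 6 arrays without the block gave 95 higher genes, and a plain 2-sample test on each gene's own variance, after Benjamini-Hochberg, gave 11 lower and 4 higher. Leaving out 1 array gave 167 to 311 lower and 51 to 359 higher genes. Above 1.5-fold at unadjusted P it gave 104 to 139 down-regulated and 15 to 40 up-regulated genes, adjusted p in place of P gave 12 up-regulated, and a limit of 2-fold gave 36 down-regulated and 2 up-regulated. Of the 574 genes, 29 moved in 1-g v.s. control in the direction of set 4 at adjusted p, 92 with the block and 0 to 39 without 1 array. Against the midpoint, 4 passed, 79 with the block, 12 among genes above the median level, 11 on centred arrays, 16 with a trend and robust prior, and 0 to 35 without 1 array. Among genes above the median level 3 of the glycogen genes were lower, since fewer were tested. The block over 12 arrays ended no call of a named gene, and the block in the 6 arrays alone ended 8. Of 135 called named genes 50 lost the call without μ-g replicate 1, 32 in the 6 arrays alone, 11 on centred arrays and 8 on quantile-normalized ones. No sign of these genes turned on centred or quantile-normalized arrays or with the mean of a gene's clusters. Under the other alternatives no sign could turn. The groups of called genes did not overlap, and the block, the 6 arrays alone, the trend and the level limit leave the differences unchanged. Where the cause of a change is not given, it was not tested. Array number and the signal of dim probes limit small differences.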

Other observations

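Of 296 miRNA genes on the array 5 were lower and 1 was higher in μ-g at adjusted p (12 and 4 with the block). That share of 2.03% is not above the 2.88% of all genes, and the median difference was −0.0074, so miRNA genes did not stand apart as a group. With the block 3.9% of all genes were lower and 5.28% higher. The single loci below were picked after their values were seen and are given as values. The array probes the precursor or host transcript in total RNA, so mature miRNAs were not measured. Mir125b-1 read 6.22, 6.53 and 6.49 in μ-g and 7.06, 7.07 and 7.06 in 2-g, a difference of −0.65 (SE 0.12, adjusted p = 0.0141). The transcript Mir100hg, which spans the same locus, differed by −0.59 (SE 0.11, adjusted p = 0.0124), and Mir100 there by −0.26 (SE 0.067) without passing (adjusted p = 0.0668, with the block 0.0411). Mir99a differed by −0.42 (SE 0.091, adjusted p = 0.0316) and its host transcript Mir99ahg by −0.70 (SE 0.074, adjusted p = 0.000369). Mirlet7e differed by −0.38 (SE 0.063, adjusted p = 0.0086), Mir7-1 by −0.61 (SE 0.10, adjusted p = 0.00742) and Mir423 by −0.37 (SE 0.061, adjusted p = 0.00834), and Mir205 was higher (0.25 (SE 0.061, adjusted p = 0.0475)). No other of the 296 miRNA genes was called, and so no other tested miRNA gene of these loci. The calls of Mir125b-1 (adjusted p = 0.0718 without μ-g replicate 1), Mir99a (0.108 without μ-g replicate 3), Mir100hg (0.0672 without μ-g replicate 1) and Mir205 (0.185 without μ-g replicate 1) were lost without single arrays. Mir210, the miRNA best known from the response to low oxygen, differed by −0.069 (SE 0.082) with adjusted p = 0.733. The 5′ mature sequences of these loci (RefSeq, GRCm38.p6) are shown to see which share a seed, with the seed (bases 2 to 8) in capitals.
mmu-miR-99a-5p (chr16:77598940-77598961, plus strand): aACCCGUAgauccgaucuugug
mmu-miR-100-5p (chr9:41531437-41531458, plus strand): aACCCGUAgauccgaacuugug
mmu-miR-125b-5p (chr9:41581940-41581961, plus strand): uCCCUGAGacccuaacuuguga
mmu-let-7e-5p (chr17:17830366-17830387, plus strand): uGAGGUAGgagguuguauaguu
mmu-miR-7a-5p (chr13:58392841-58392863, minus strand): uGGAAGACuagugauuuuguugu
mmu-miR-423-5p (chr11:77078122-77078144, minus strand): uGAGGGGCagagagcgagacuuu
miR-99a-5p and miR-100-5p share 1 seed, and the others have seeds of their own.

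Of 7067 transcript clusters without a single symbol 93 were lower and 23 higher in μ-g, with p adjusted over all 28856 clusters. That is 1.64% of the 7067, below the 2.88% of the 19938 genes, whose p was adjusted over those genes. The log2 differences of the called clusters ran from −1.68 to 0.59. They are unnamed here.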
